A study of Drosophila melanogaster with 6 samples.

Results

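The adenylate cyclase genes of *Drosophila melanogaster* were described in RNA-sequencing libraries from the heads of control flies. The 10 members were chosen by symbol and fall into 2 sets of 5. *rut*, *Ac3*, *Ac13E*, *Ac76E* and *Ac78C* are called brain cyclases here, and *ACXA*, *ACXB*, *ACXC*, *ACXD* and *ACXE* form the ACX group. The first name is a working label, since RNA of whole heads does not show which cells a transcript came from. All 10 had a row among the 17559 genes counted. The study knocked down fly homologs of genes in a human deletion in neurons, and its knockdown libraries were not analysed here. Of the 6 control libraries, 3 came from flies reared at 25°C that carried *Elav-GAL4* on a w[1118] chromosome over w[1118] with 1 copy of the transgene (UAS-Dicer2/+), called the Dicer2 25C control. The other 3 came from *Elav-GAL4* flies without the transgene and of another driver stock, otherwise of the same make-up, reared at room temperature (RT control). *Elav-GAL4* drives expression in neurons. All flies were female, carry the VDRC stock number v60000 in the labels and are described there as controls with no knocked-down gene, and no age is given in the labels. Each library was made from polyA RNA of a pool of 35 to 40 flies. *UAS-Dicer2* expresses the RNA interference enzyme Dicer-2 under that driver, so overexpression was directed to neurons while RNA came from the whole head. The driver stock, Dicer-2 and the rearing temperature differ together between the groups and cannot be told apart.

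Adenylate cyclases make the second messenger cyclic AMP from ATP. Receptors act on them through stimulatory and inhibitory G proteins, and cyclic AMP then activates protein kinase A and other effectors until phosphodiesterases degrade it. In flies this pathway is best known for associative learning, where *rut*, the calcium- and calmodulin-responsive cyclase, acts in mushroom body neurons. The ACX genes encode a separate group of related cyclases first described from the male germline.

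The libraries held between 18651266 and 42487803 reads counted on genes, and the RT control was on average 1.69 times as deep. A count of 3, the floor used here, equals between 0.0706 and 0.161 counts per 1000000 counts on genes (CPM). Such floors cover counting error only and use unadjusted totals. The CPM values below use totals adjusted by TMM normalization unless stated otherwise. Replicate 1 of the Dicer2 25C control stood apart with 69361668 alignments that were not unique, against 7164088 to 8454145 in the other 5 libraries. *Dcr-2*, the gene that the transgene expresses, reached 572.1 ± 57.6 CPM in the Dicer2 25C control against 58.0 ± 3.03 CPM in the RT control (SD, n = 3 each), in the direction of the labels (log2 fold change -3.30, SE 0.11, adjusted p = 6e-05). That p and the adjusted p-values that follow were obtained with edgeR (quasi-likelihood F statistic, adjusted by Benjamini-Hochberg over the 10187 genes tested), and fold changes are RT control minus Dicer2 25C control.

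The 10 genes lie on chromosome X and on arms 2L and 3L in the BDGP6.54 annotation. *rut* (FBgn0003301) spans 14787478 to 14826073 on the minus strand of chromosome X with 20 exons, and *Ac13E* (FBgn0022710) spans 15510877 to 15554278 on the same strand of that chromosome with 7 exons. *Ac76E* (FBgn0004852) spans 19939287 to 19977960 on the plus strand of 3L and *Ac78C* (FBgn0024150) spans 21136447 to 21171930 on its minus strand. *Ac3* (FBgn0023416) spans 21632587 to 21647964 on the plus strand of 2L. These 5 genes are long, with spans from 15378 to 43402 bp and exonic lengths from 5172 to 9618 bp.

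The ACX genes are compact, with spans from 4195 to 6112 bp and exonic lengths from 3448 to 4118 bp in 11 or 12 exons. Of the 5, 4 lie head to tail on the plus strand of 2L in the order *ACXC* (FBgn0040508, 12912530 to 12916774), *ACXB* (FBgn0040509, 12916814 to 12921008), *ACXA* (FBgn0040510, 12921091 to 12925453) and *ACXE* (FBgn0040506, 12925611 to 12929823). Gaps of only 39, 82 and 157 bp separate them, so the block covers 17294 bp. *ACXD* (FBgn0040507) lies apart, on the plus strand of 3L from 2237608 to 2243719. No ACX gene overlapped another annotated gene. The ACX genes are related in sequence, and whether reads were divided between near-identical copies was not tested.

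Per length of exon, the brain cyclases were far more abundant than the ACX genes in every library. Dividing CPM by exonic length gives CPM per kb, the scale on which genes are compared here. In the Dicer2 25C control, the order was *Ac3* (34.1 ± 5.13 CPM per kb), *rut* (29.8 ± 4.42), *Ac76E* (17.7 ± 1.43), *Ac13E* (11.8 ± 2.47) and *Ac78C* (5.81 ± 0.86). In the RT control, *rut* (30.2 ± 0.558 CPM per kb) came just before *Ac3* (29.5 ± 1.73), followed by *Ac76E* (19.6 ± 1.6), *Ac13E* (12.1 ± 0.191) and *Ac78C* (5.44 ± 0.64). *Ac3* and *rut* overlapped in both groups, at a ratio of 1.15 and 1.03 of the higher to the lower. In the RT control *rut* was the higher in 2 of 3 libraries. That order depends on the length used. Per coding length (6744 bp for *rut*, 3501 bp for *Ac3*), the mean of *Ac3* would come just before *rut* there too. Every other neighbour in these 5 was separated in all libraries of its group. Among the genes tested, *Ac3* had a higher level per kb than 78.4%, *rut* than 77.0%, *Ac76E* than 63.4%, *Ac13E* than 48.9% and *Ac78C* than 30.1%.

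The drop to the ACX group came after *Ac78C*. In the Dicer2 25C control, *Ac78C* was 4.13 times as high as the next gene, *ACXC* (1.41 ± 0.069 CPM per kb), and in the RT control it was 5.46 times as high as the next gene, *ACXD* (0.995 ± 0.167). *ACXC* in the RT control was at 0.766 ± 0.0777 CPM per kb, and its range overlapped that of *ACXD*, although *ACXD* was the higher of the pair in 3 of 3 libraries. *ACXB* was at 0.195 ± 0.0166 CPM per kb in the Dicer2 25C control against 0.0663 ± 0.012 in the RT control. *ACXE* and *ACXA* were the lowest pair in both groups and overlapped each other. All values are mean ± SD with n = 3.

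**Figure D1:**
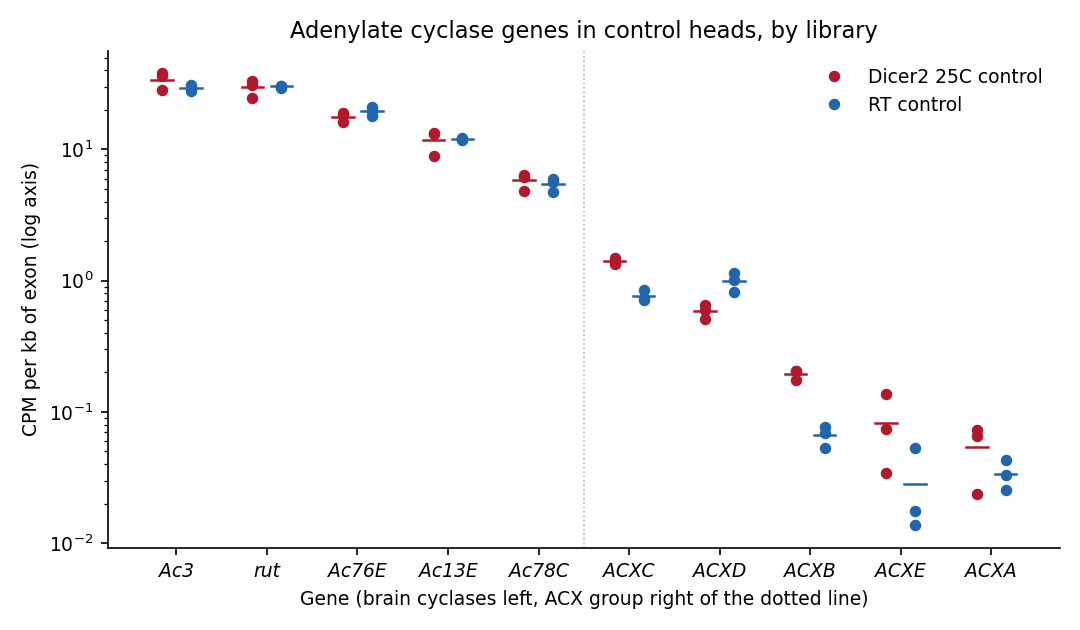
Level of the 10 adenylate cyclase genes in CPM per kb of exon on a log axis, with 1 point per library, a line at the mean of 3 libraries, the Dicer2 25C control in red and the RT control in blue. Every brain cyclase lies above every ACX gene, and the order of *ACXC* and *ACXD* differs between the groups.

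Summed over its 5 genes, the brain set was at 109.3, 105.2 and 82.9 CPM per kb in replicates 1 to 3 of the Dicer2 25C control and at 97.7, 98.8 and 93.7 in the RT control. These ranges overlapped, and the third Dicer2 25C replicate was the lowest of the 6. The ACX sum was 2.39, 2.29 and 2.29 CPM per kb in the Dicer2 25C control against 1.65, 1.86 and 2.16 in the RT control, which did not overlap. The brain set was therefore 42.6 ± 5.59 times the ACX sum in the Dicer2 25C control against 51.9 ± 7.86 times in the RT control, and the ratio overlapped between groups. These sums carry no test.

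No brain cyclase passed the test between the control groups, and the ranges of the groups overlapped for all 5. *rut* was measured at 320.2, 300.1 and 238.6 CPM in the 3 Dicer2 25C replicates and at 294.9, 292.1 and 284.5 CPM in the RT replicates. All RT values lay inside the Dicer2 25C range (log2 fold change 0.02, SE 0.12, adjusted p = 0.92). *Ac3*, a cyclase studied in the fly's circadian pacemaker neurons, was at 196.7, 186.0 and 146.4 CPM against 161.4, 152.2 and 143.5 CPM. Its RT values lay at the low end, overlapping through the third Dicer2 25C replicate (log2 fold change -0.21, SE 0.12, adjusted p = 0.29). Without that replicate the same test gave -0.33 with an adjusted p of 0.032, so 1 library decided the *Ac3* call. The same omission raised the count called over all genes from 1030 of 10187 to 1944 of 10449.

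*Ac13E*, the fly counterpart of the mammalian cyclase ADCY9, was at 108.5, 106.1 and 72.6 CPM in the Dicer2 25C control against at 96.2, 98.4 and 99.2 CPM in the RT control. The RT values lay between the highest and lowest Dicer2 25C values (log2 fold change 0.03, SE 0.15, adjusted p = 0.9). *Ac76E* was at 97.2, 99.9 and 85.6 CPM against 96.0, 113.0 and 103.7 CPM, with the ranges overlapping (0.15, SE 0.09, adjusted p = 0.33). *Ac78C* was at 43.9, 42.4 and 33.0 CPM against 40.8, 38.6 and 32.3 CPM, again overlapping (-0.10, SE 0.14, adjusted p = 0.67). Of the 5 brain cyclases, 0 were called by edgeR, 0 by DESeq2 and 0 at an unadjusted p under 0.05, and their median absolute log2 fold change was 0.10. Over all genes tested, 10.1% were called at an adjusted p under 0.05, 30.7% had an unadjusted p under 0.05, DESeq2 called 18.6%, and the median absolute log2 fold change was 0.18.

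Within the Dicer2 25C control, the third replicate was the lowest for 5 of 5 brain cyclases. Over all 6 libraries, the lowest values of *Ac3* (143.5 CPM) and *Ac78C* (32.3 CPM) were in the third RT replicate. The highest Dicer2 25C library exceeded the lowest by 1.17 to 1.5 times for these genes, against 1.03 to 1.26 times among the RT libraries. *Ac76E* spread as widely in the RT control (1.18 times) as in the Dicer2 25C control (1.17 times). Other lists moved in the third Dicer2 25C replicate too. The 7 neuron markers with a row summed to 5723.9, 5370.2 and 4175.6 CPM in the Dicer2 25C replicates and 4357.6, 4264.5 and 4177.5 CPM in the RT replicates. The 3 muscle markers with a row were lower still in the third Dicer2 25C replicate, at a sum of 3621.3 CPM against 7021.6 and 6922.1 CPM in the other Dicer2 25C replicates. The sum of the 6 glia markers was higher, at 1916.5 against 1527.5 and 1566.6 CPM. Within that list, *Eaat1* (370.0 against 375.7 and 384.6 CPM) and *moody* (65.0 against 70.5 and 65.7 CPM) were lower. Among the 9 photoreceptor markers, the 5 rhodopsin genes were higher (*ninaE* at 52700.1 against 38465.1 and 39105.4 CPM), whereas *norpA*, *trp*, *ninaC* and *inaD*, genes of the phototransduction cascade, were lower. Of these 7 neuron and 9 photoreceptor markers edgeR called 0 between the groups, where 10.1% of all genes tested were called. At an unadjusted p under 0.05, 2 were lower in each list (28.6% and 22.2%, beside 30.7% of all genes tested). DESeq2 called 1 and 3 lower (14.3% and 33.3%, beside 18.6%). The part of these markers in the values of the cyclases was not tested. In RNA from whole heads, fewer cells of a type and less RNA per cell cannot be told apart.

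**Figure D2:**
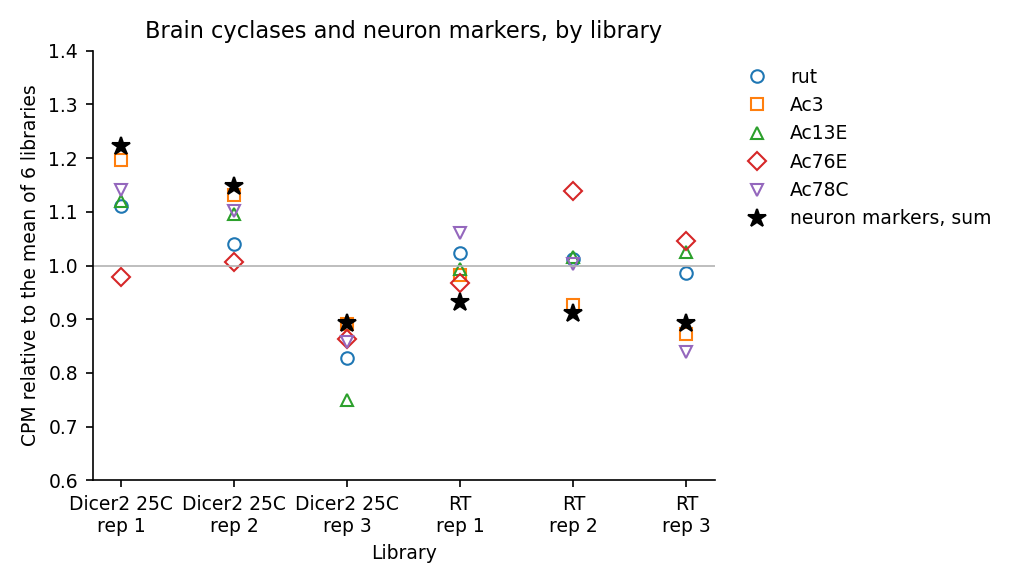
CPM of each brain cyclase, and of the summed neuron markers, divided by its mean over the 6 libraries, with 1 column per library and the line at 1 marking that mean. In the third Dicer2 25C replicate all 5 cyclases and the neuron marker sum lie below the line. The neuron marker sum also lies below it in every RT replicate, where the cyclases lie on both sides of the line.

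The brain cyclases were also compared as shares of their sum. *rut* made up 30.0% ± 0.4 of the summed CPM per kb in the Dicer2 25C control against 31.2% ± 0.427 in the RT control, and *Ac3* made up 34.4% ± 0.361 and 30.4% ± 1.3. These shares did not overlap between groups for either gene, *Ac3* being lower and *rut* higher in the RT control. *Ac13E* held 11.8% and 12.5%, *Ac76E* held 18.0% and 20.3%, and *Ac78C* held 5.86% and 5.61%. As shares of a sum they are not independent of each other, and no test was made.

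Exons were shared with another gene for *rut* and *Ac13E* among the brain cyclases. *Ac13E* shares 347 exonic bases, 4.3% of its exonic length, with *Gmap* on the opposite strand, which encodes a Golgi coiled-coil protein and was not called between groups (60.9 ± 2.57 against 65.1 ± 3.67 CPM, log2 fold change 0.09, SE 0.07, adjusted p = 0.4). *rut* shares 420 exonic bases, 4.4%, with the noncoding RNA gene *lncRNA:CR45522* on the opposite strand, which had 0 to 3 counts. Other genes lay within introns and shared 0 exonic bases. These were *lncRNA:CR44353* (2 to 11 counts) and *lncRNA:CR44354* (0 to 2 counts) in *Ac13E*, and *CG32219*, *CG34258*, *CG33710*, *CG42655*, *CG42654* and *CG42263* (0 to 3 counts) in *Ac76E*. The kit marks strand, but the strand setting of the counting is not given in the sources used here.

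In the ACX group, *ACXC* was lower and *ACXD* higher in the RT control at an adjusted p under 0.05, where 5.28% of all genes tested were called higher and 4.83% lower. *ACXB* was also lower but entered the test only through the group in which it was high, and *ACXA* and *ACXE* were near the floor. The ranges of *ACXB*, *ACXC* and *ACXD* did not overlap between groups, which was also true of 37.5% of all genes tested.

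*ACXC*, the first gene of the 2L block, was at 4.92, 4.82 and 5.29 CPM in the Dicer2 25C control (94, 123 and 124 counts) and at 2.53, 2.61 and 3.05 CPM in the RT control (83, 110 and 100 counts). Every Dicer2 25C value lay above every RT value. The level was 1.84 times as high in the Dicer2 25C control (log2 fold change -0.88, SE 0.13, adjusted p = 0.016). The adjusted p rose to between 0.052 and 0.078 when replicate 1 or 2 of the Dicer2 25C control, or replicate 2 or 3 of the RT control, was left out. These omissions also lowered the count called over all genes, from 1030 with all libraries to between 44 and 183. The log2 fold change ranged from -0.96 to -0.83 over all 6 omissions.

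*ACXB*, next to it in the block, was at 0.733, 0.627 and 0.725 CPM in the Dicer2 25C control (14, 16 and 17 counts) and at 0.244, 0.190 and 0.274 CPM in the RT control (8, 8 and 9 counts). The groups did not overlap, although the counts were small. The level was 2.95 times as high in the Dicer2 25C control (log2 fold change -1.55, SE 0.27, adjusted p = 0.023), and of the 8 genes tested it was the one past a log2 fold change of 1, where 2.82% of all genes tested were called. None of the RT libraries reached the CPM that the low-count filter asked for, so the filter itself favoured a difference and the call is given as a description. With no filter the values were -1.52 and an adjusted p of 0.036. Its call was lost at an adjusted p of 0.076 to 0.10 on leaving out replicate 1 or 2 of the Dicer2 25C control or replicate 2 or 3 of the RT control, with log2 fold changes from -1.67 to -1.40. These are the omissions that lowered the count called over all genes.

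*ACXD*, on 3L, went the other way. Its level was 2.46, 2.70 and 2.09 CPM in the Dicer2 25C control (47, 69 and 49 counts) and at 3.36, 4.22 and 4.72 CPM in the RT control (110, 178 and 155 counts). All RT values exceeded all Dicer2 25C values. The level was 1.69 times as high in the RT control (log2 fold change 0.76, SE 0.18, adjusted p = 0.047). This call was the closest of the 3 to the threshold and was lost on leaving out any library but replicate 1 of the RT control, at adjusted p-values of 0.070 to 0.13 and log2 fold changes from 0.65 to 0.85. The omission of replicate 3 of the Dicer2 25C control was among these (0.070). That omission raised the count called over all genes to 1944 of 10449, while the others lowered it. The *ACXD* call was also lost with upper quartile scaling (0.057), library totals only (0.058) and thinned counts (0.058).

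*ACXA* was at 0.262, 0.235 and 0.0853 CPM in the Dicer2 25C control against at 0.153, 0.119 and 0.0914 CPM in the RT control, from 2 to 6 counts per library and 13 counts in each group. *ACXE* was at 0.471, 0.118 and 0.256 CPM against 0.0610, 0.0474 and 0.183 CPM, from 2 to 9 counts per library. Both overlapped between the groups, and neither reached the level required for testing. *ACXA* was at or under the floor of 3 counts in 2 libraries and *ACXE* in 3. With no filter, edgeR gave a log2 fold change of -0.62 for *ACXA* (SE 0.58, adjusted p = 0.57) and -1.46 for *ACXE* (SE 0.72, unadjusted p = 0.076, adjusted p = 0.28), so neither was called and the estimates were wide.

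**Figure D3:**
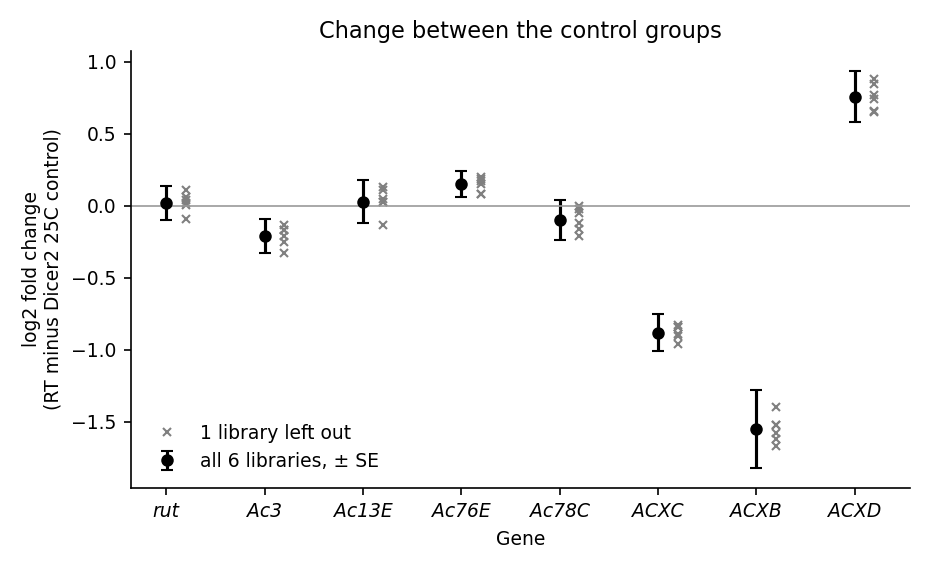
Log2 fold change (RT control minus Dicer2 25C control) of the 8 genes tested, with the estimate from all 6 libraries as a black point, its SE as bars and the 6 estimates with 1 library left out as grey crosses. *ACXC* and *ACXB* lie below 0 and *ACXD* above 0 in every estimate, whereas the crosses of *rut* and *Ac13E* fall on both sides of 0.

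The make-up of the ACX transcripts followed from these opposite changes. *ACXC* made up 57.7%, 59.2% and 64.7% of the summed ACX level per kb in the Dicer2 25C control and 42.9%, 39.4% and 39.6% in the RT control. *ACXD* made up 25.0%, 28.7% and 22.1% against 49.3%, 55.2% and 53.2%. Expressed per kb, *ACXD* was at 0.42 ± 0.0726 of the level of *ACXC* in the Dicer2 25C control and 1.3 ± 0.133 of it in the RT control. Neither the shares nor that ratio overlapped between groups, and since they follow from the changes just given they are a description with no test.

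**Figure D4:**
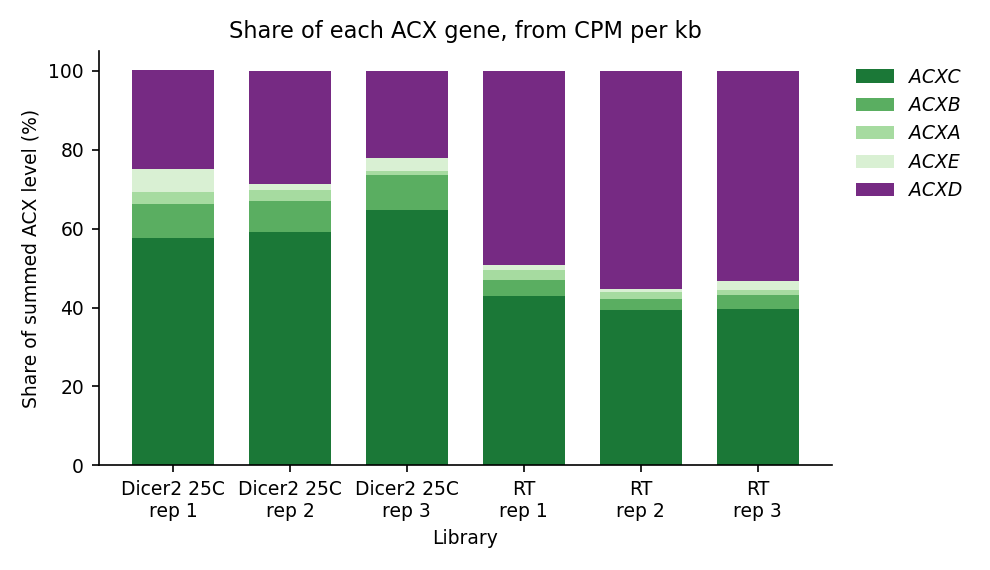
Share (%) of each ACX gene in the summed CPM per kb of the 5 ACX genes, with 1 stacked bar per library. The purple part, *ACXD*, runs from 22.1% to 28.7% in the Dicer2 25C control and from 49.3% to 55.2% in the RT control.

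Within the 2L block, levels per kb were uneven. *ACXC* was 6.7, 7.67 and 7.28 times as high as *ACXB* per kb in the Dicer2 25C replicates and 10.4, 13.7 and 11.1 times in the RT replicates. The 4 genes of the block summed to 6.18 ± 0.329 CPM in the Dicer2 25C control against 3.18 ± 0.356 CPM in the RT control, mostly *ACXC*. The nearest protein-coding gene to the left is *kek1*, which encodes a transmembrane protein that inhibits the EGF receptor. It lies 89742 bp away and was not called (log2 fold change -0.15, SE 0.12, adjusted p = 0.44). *CG16800*, the nearest protein-coding gene to the right at 36766 bp, had 1 to 5 counts. Beside *ACXD*, *CG9018* begins 531 bp to the left on the opposite strand and was not called (25.4 ± 2.31 against 25.5 ± 1.16 CPM, log2 fold change 0.01, SE 0.09, adjusted p = 0.97). *CG32301*, 758 bp to the right of *ACXD*, had 0 to 5 counts.

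Since the ACX genes are known from testis, testis markers were examined in these libraries labelled female. Of 24 testis markers, 15 had no more than 3 counts in every library and 3 of these were at 0 throughout. The list summed to between 10.7 and 13.0 CPM in the Dicer2 25C control against between 8.30 and 8.83 CPM in the RT control. Of the 6 that could be tested, edgeR called 0, against 1 higher and 1 lower at an unadjusted p under 0.05 and 1 lower by DESeq2. These shares were 0%, 33.3% and 16.7%, beside 10.1%, 30.7% and 18.6% of all genes tested. Closest was *mia*, a spermatocyte transcription cofactor (log2 fold change -0.60, adjusted p = 0.055). *roX1*, a noncoding RNA of male dosage compensation, was at 6.43 to 7.12 CPM in the Dicer2 25C control against 3.94 to 5.05 CPM in the RT control (-0.63, SE 0.13, adjusted p = 0.037). Other members of these lists went either way or overlapped. The CPM of the male markers *kl-2* (3, 6 and 4 counts against 4, 4 and 3) and *kl-5* (9, 7 and 13 against 4, 7 and 6) did not overlap. Nor did that of the testis markers *sa* (2, 2 and 1 counts against 0, 1 and 0) and *Mst84Dc* (1, 1 and 3 against 1, 1 and 1). The RT control was lower in CPM for each, but it was also 1.69 times as deep, so an equal count gives a lower CPM there. Ranges did not overlap for 37.5% of all genes tested. These low counts were not tested. The male markers *roX2* and *kl-3* had lower means in the RT control, with overlapping ranges. In the other direction, *msl-2* gave a log2 fold change of 0.08 (adjusted p = 0.49) and the testis marker *tomb* gave 1.34 (adjusted p = 0.12). *tomb* had 1 to 7 counts per library in the Dicer2 25C control against 13 to 21 in the RT control. It entered the test only through the group in which it was high, so its value is a description. Every other tested testis marker had a value below 0, and the median of the 6 was -0.46. The 6 male markers summed to 39.9 to 44.2 CPM against 39.4 to 42.1 CPM. Most of that sum was *msl-2*, at 32.2 to 36.1 CPM against 34.7 to 36.6 CPM. The part of either list in the values of the ACX genes was not tested.

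The other genes of the cyclic AMP pathway were examined in the same fit. Of 42 genes in 8 lists by role, 40 were tested, 0 rose and 2 fell in the RT control, with a median log2 fold change of -0.11 against 0.00 over all genes tested. At an unadjusted p under 0.05 these counts were 3 and 10, and by DESeq2 1 and 7. The shares of the 40 were 5%, 32.5% and 20%, beside 10.1%, 30.7% and 18.6% of all genes tested. The first that fell was *Octbeta2R*, a receptor for octopamine that raises cyclic AMP, at 37.4, 31.7 and 28.7 CPM in the Dicer2 25C control against 20.7, 21.1 and 22.4 CPM in the RT control. Its groups did not overlap (log2 fold change -0.61, SE 0.11, adjusted p = 0.024). The other was *Cam*, which encodes calmodulin, the calcium sensor that activates the *rut* product, at 3430.3, 3426.0 and 3228.7 CPM against 2395.4, 2206.4 and 2311.6 CPM. These did not overlap either (-0.54, SE 0.11, adjusted p = 0.032). Both calls were lost on leaving out any one of the same 4 libraries as for *ACXC*.

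By role, the 8 receptors held the *Octbeta2R* call and the 3 regulators of cyclases the *Cam* call. Among 5 G protein subunits, 6 phosphodiesterases and 4 tested protein kinase A subunits of 5, edgeR called 0 genes. It also called 0 among 3 anchoring proteins, 5 effectors and 6 tested guanylate cyclases of 7, where 10.1% of all genes tested were called. At an unadjusted p under 0.05, 3 G protein, 2 kinase and 2 guanylate cyclase genes were lower and 2 anchors higher. These were 60%, 50%, 33.3% and 66.7% of those tested, beside 30.7% of all genes tested, with 0 phosphodiesterases and effectors. DESeq2 called 2, 1, 1 and 1 in these 4 lists (40%, 25%, 16.7% and 33.3%, beside 18.6%). *Galphas*, the stimulatory G protein subunit, reached 141.5 ± 2.57 CPM in the Dicer2 25C control against 120.5 ± 5.24 CPM in the RT control (-0.23, SE 0.06, adjusted p = 0.06). It was called with upper quartile scaling (0.03), library totals only (0.02) and DESeq2 (0.017), without replicate 3 of the Dicer2 25C control (0.04) and without replicate 1 of the RT control (0.048). *dnc*, the phosphodiesterase that lowers cyclic AMP in the learning pathway, was at 225.7 ± 32 against 214.8 ± 3.94 CPM (-0.07, SE 0.11, adjusted p = 0.7). Among the kinase subunits, *Pka-C1*, the main catalytic subunit, gave -0.18 (SE 0.13, adjusted p = 0.41), and *Pka-R2*, a regulatory subunit, gave -0.26 (SE 0.12, adjusted p = 0.19). Without replicate 3 of the Dicer2 25C control both were called, at -0.31 (adjusted p = 0.041) and -0.37 (adjusted p = 0.022). That omission raised the count called over all genes from 1030 of 10187 to 1944 of 10449. *Nf1*, the neurofibromin gene needed for *rut*-dependent signalling, gave 0.23 (SE 0.15, adjusted p = 0.36). The transcription factor gene *CrebB* gave -0.10 (SE 0.09, adjusted p = 0.48), and *capt*, the fly cyclase-associated protein, gave -0.02 (SE 0.06, adjusted p = 0.83).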

How the data were processed

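The deposited files hold whole-number counts of reads on each gene, made by the authors for each of the 6 libraries (TruSeq Stranded mRNA kit). The submitters' processing notes name Trimmomatic 0.36, FastQC, TopHat2 2.1.0 and HTSeq 0.6.1, and the study's methods describe alignment to the fly genome before counting. The strand and multiple-alignment settings are not given in the sources used here. Counts were not normalized, and replicates, which the study describes as biological, were not pooled. Rows that name no gene were left out of totals (reads in no feature were 3.16% to 4.76% and ambiguous reads 2.36% to 3.62% of each library).

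Of 17559 identifiers, 17253 matched the BDGP6.54 annotation, used for names, coordinates and the union of exons. Groups were taken from the sample titles. The comparison of both control groups was made in R 4.3.3 with edgeR 4.0.16 (TMM normalization, filterByExpr, quasi-likelihood test, Benjamini-Hochberg adjustment over 10187 genes). Genes were called at an adjusted p under 0.05, and also with an absolute log2 fold change above 1. SEs were derived from the F statistic. CPM used TMM-adjusted totals. The fit was tested on simulated data. Alternatives were other scalings, filters, tests (DESeq2 1.42.0 among them), thinning, a replicate block and leaving out each library. The text names all 10 members, *Dcr-2* and the annotated genes (transposable elements aside) that overlap a member. It also names the nearest protein-coding genes beside the ACX genes, and noncoding neighbours were not looked up. From 8 lists of the cyclic AMP pathway it names those called and 8 fixed by role. The members and lists were chosen with earlier results of these data known. *roX1*, *mia*, *tomb*, *msl-2*, *kl-2*, *kl-5*, *sa*, *Mst84Dc*, *roX2*, *kl-3*, *Yp1*, *Yp2*, *Yp3*, *Eaat1*, *moody* and the photoreceptor genes were named after their values were seen.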

Additional observations from a re-analysis of the deposited data

How the results depend on the processing

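The count of genes called (1030) was 1889 with DESeq2, 172 with the replicate block, and 44 to 1944 with 1 library left out (183 and 44 without Dicer2 25C replicates 1 and 2, 1944 without replicate 3, 160 and 88 without RT replicates 2 and 3). With the fold threshold (287) it was 495 by the likelihood ratio test, 437 with DESeq2, 91 with the replicate block, and 33 to 438 with 1 library left out. The replicate numbers did not pair the samples (r of same-numbered deviations -0.082, -0.005 and 0.005). Under that block the adjusted p was 0.055 for *ACXC*, 0.077 for *ACXB*, 0.10 for *ACXD*, 0.078 for *Octbeta2R* and 0.14 for *Cam*.

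*ACXD* also lost its call with upper quartile scaling (0.057), library totals only (0.058) and thinned counts (0.058). *ACXB* was not tested when at least 10 counts were required in every library. *Dcr-2* kept its call in all 15 alternatives.

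Values near 0 changed sign: *rut* to -0.03, -0.07 and -0.09 and *Ac13E* to -0.02, -0.06 and -0.13 with upper quartile scaling, library totals only and without Dicer2 25C replicate 3; *CG9018* to -0.05, -0.09, -0.00, -0.07 and -0.03 with upper quartile scaling, library totals only, at least 10 counts, and without Dicer2 25C replicate 1 or RT replicate 3; *dnc* to 0.02 without Dicer2 25C replicate 1; and *capt* to 0.01 with no filter. With 1 library left out, the ranges were -0.09 to 0.11 for *rut*, -0.13 to 0.13 for *Ac13E*, -0.18 to 0.02 for *dnc* and -0.07 to 0.06 for *CG9018*.

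Per coding length, chosen after seeing the data because the planned protein lengths were not run, the brain sum was 143.2 (Dicer2 25C control) and 139.5 (RT control), the ACX sum 2.52 in the Dicer2 25C control, and the ratios 56.7 and 66.8. With library totals only, the RT brain sum was 93.6 and the Dicer2 25C ACX sum 2.40. *ACXA* and *ACXE* had 2 to 9 counts per library.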
